A study of Mus musculus with 4 samples.

Results

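The cells described here were epithelial cells of the sorted Pax2-Cre lineage that held messages of the pharyngeal pouch transcription factors Pax1, Nkx2-6 and Foxe1. Members were chosen by measured values. A cell was a member when it had at least 1000 detected genes, at most 10% of its unique molecular identifiers (UMIs, counts of captured messages) in mitochondrial genes, at least 1 Epcam UMI, at least 2 UMIs summed over Pax1, Nkx2-6 and Foxe1, no Hmx2 or Hmx3 UMI and at most 2 Neurod1 UMIs. Of 14985 cells that passed the gene and mitochondrial limits, 239 were members, called gated cells below. Since these genes chose the cells, the levels of Pax1, Nkx2-6, Foxe1, Epcam, Hmx2, Hmx3, Neurod1 and, for the ectoderm, Trp63 are descriptions and were not tested.

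The cells came from mouse embryos of the Swiss-Webster strain at E10.5, between 34 and 36 somites. The conditional knockout (cKO, 2 libraries) combined the Pax2-Cre driver and a Rosa26-GFPf/+ reporter with floxed alleles of both T-box genes, Tbx2f/f and Tbx3f/f. The controls (2 libraries) had Pax2-Cre and Rosa26-GFPf/+, so both groups carried the Cre driver and the GFP reporter, and the control embryos are not named as carrying floxed alleles. The labels name 2 cKO and 3 control embryos, whose dissected otic regions, with neighbouring neural tube and pharyngeal cells, were pooled and sorted for GFP without DAPI. How the embryos were split over the libraries is not stated, so p-values reflect library-to-library spread, part of which may be technical. Pax2-Cre acts where Pax2 was active, so only pharyngeal cells with that history could be sorted, and a gain of sorted cells and a gain of cells in the embryo cannot be told apart.

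Pharyngeal pouches are outpocketings of the foregut endoderm that meet the surface ectoderm of the clefts and give rise to the thymus, the parathyroids and other glands. Pax1 and its paralogue Pax9 are paired-box factors of pouch endoderm, Nkx2-6 is a homeobox factor of the same pouches, and Foxe1 is a forkhead factor of the foregut and thyroid. Tbx1 and Eya1 act in pouch outgrowth, Fgf8 and Fgf3 are secreted signals of pouch and cleft epithelium, and Vgll2 is a transcriptional cofactor expressed in pouches. Surface ectoderm is marked by the p63 gene Trp63, AP-2 factors such as Tfap2a and Tfap2b, and the secreted signal Wnt6. Tbx2 and Tbx3 are T-box factors that mainly repress transcription.

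The 250 bases before the start of Pax1, Pax9 and Vgll2 are shown because Pax9 and Vgll2, which the gate did not use, were found in most members with Pax1 and in few without it. They are RefSeq sequences of build GRCm38.p6 on the plus strand, read 5′ to 3′, at chr2:147364744-147364993, chr12:56695221-56695470 and chr10:52022252-52022501. Capitals mark matches to AGGTGT, a T-box core, and to CACTTG, an NK2 core, searched on both strands. A forkhead core, TGTTTAC, was searched as well.
Pax1: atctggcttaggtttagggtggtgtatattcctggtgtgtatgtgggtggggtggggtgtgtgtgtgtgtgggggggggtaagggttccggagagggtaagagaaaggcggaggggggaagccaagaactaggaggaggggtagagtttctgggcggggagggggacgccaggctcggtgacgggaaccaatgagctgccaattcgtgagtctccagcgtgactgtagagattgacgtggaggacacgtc
Pax9: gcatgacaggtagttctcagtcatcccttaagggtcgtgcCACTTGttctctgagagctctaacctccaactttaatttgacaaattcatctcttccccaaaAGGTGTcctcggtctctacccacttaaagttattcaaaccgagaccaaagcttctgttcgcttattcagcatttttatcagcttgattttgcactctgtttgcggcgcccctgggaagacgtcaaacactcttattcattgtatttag
Vgll2: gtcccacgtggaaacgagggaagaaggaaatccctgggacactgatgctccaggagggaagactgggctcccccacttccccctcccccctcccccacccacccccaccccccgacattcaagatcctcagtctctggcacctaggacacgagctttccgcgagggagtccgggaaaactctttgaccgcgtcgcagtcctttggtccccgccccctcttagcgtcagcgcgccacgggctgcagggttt
The Pax9 window held 1 match to the T-box core, at bases 103 to 108, and 1 to the NK2 core, at bases 41 to 46. No letters of the 3 motifs were found in the windows of Pax1 and Vgll2, and no forkhead core in that of Pax9. Of 32851 promoter windows of this length, 11.8% held the T-box core, 11.6% the NK2 core and 3.17% the forkhead core. A match of these letters describes the sequence and does not show binding.

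The 4 libraries held between 106769747 and 128205192 UMIs and between 3344 and 4023 passing cells. The members' counts summed to 3428240 UMIs in cKO 1, 3680725 in cKO 2, 865090 in control 1 and 116168 in control 2. Control 2 stands apart because it contributed only 4 members, and 3 UMIs there already amount to 25.8 CPM (counts per 1000000 UMIs of the summed cells), so a zero in that library says little. Between 2 and 8 cell barcodes were shared by each pair of libraries, and none belonged to members in both. The median share of mitochondrial UMIs in members was 1.43% and 1.49% in the cKO libraries, against 2.75% and 3.32% in the control libraries, and all passing cells had the same order. Its part in the results was not tested.

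The targeted genes were almost silent in these cells. Tbx2 had 1.17 and 2.99 CPM in members of cKO 1 and cKO 2, against 5.78 and 0 CPM in control 1 and control 2. Tbx3 had 2.63 and 4.08 CPM in the cKO libraries, against 3.47 and 0 CPM in the control libraries. Over all passing cells Tbx3 had 16.2 and 16.3 CPM in cKO, against 56.5 and 55.3 CPM in control, and Tbx2 had 33.9 and 44.7 CPM in cKO, against 59.8 and 62.1 CPM in control. The reads come from the 3′ ends of messages, and whether these lie in the deleted part is not given in the labels, so residual counts do not measure recombination.

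Members made up a larger share of the cKO libraries. They were 97 of 3344 passing cells in cKO 1 (2.90%, exact 95% binomial interval 2.36% to 3.53%) and 111 of 3861 in cKO 2 (2.87%, 2.37% to 3.45%). They were 27 of 4023 in control 1 (0.671%, 0.443% to 0.975%) and 4 of 3757 in control 2 (0.106%, 0.0290% to 0.272%). These intervals cover counting error only. The group means were 2.89 ± 0.0183% in cKO and 0.389 ± 0.399% in control (SD, n = 2 libraries each), a difference of 2.50 percentage points. The exact two-sided permutation test gave p = 0.33, the smallest value that 2 against 2 libraries allow. The order was the same within Epcam-positive passing cells, at 4.44% and 3.51% in cKO, against 0.887% and 0.165% in control. After thinning every cell to 10000 UMIs the shares were 1.71% and 1.94% in cKO, against 0.285% in control 1 and 0 of 3540 cells in control 2, for which the upper end of the exact interval is 0.104%.

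Surface ectoderm, taken as cells with at least 2 Trp63 UMIs and no Pax1 or Nkx2-6 UMI, also differed between libraries. It made up 7.03% and 5.05% of the cKO libraries, against 4.50% and 1.25% of the control libraries, with 235, 195, 181 and 47 cells in the order cKO 1, cKO 2, control 1 and control 2. Of members and ectoderm together, members were 29.2% and 36.3% in cKO, against 13.0% and 7.84% in control. The larger share of members in cKO thus held beside ectoderm of the same libraries. How much of the pharyngeal tissue each dissection took is not recorded.

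**Figure D1:**
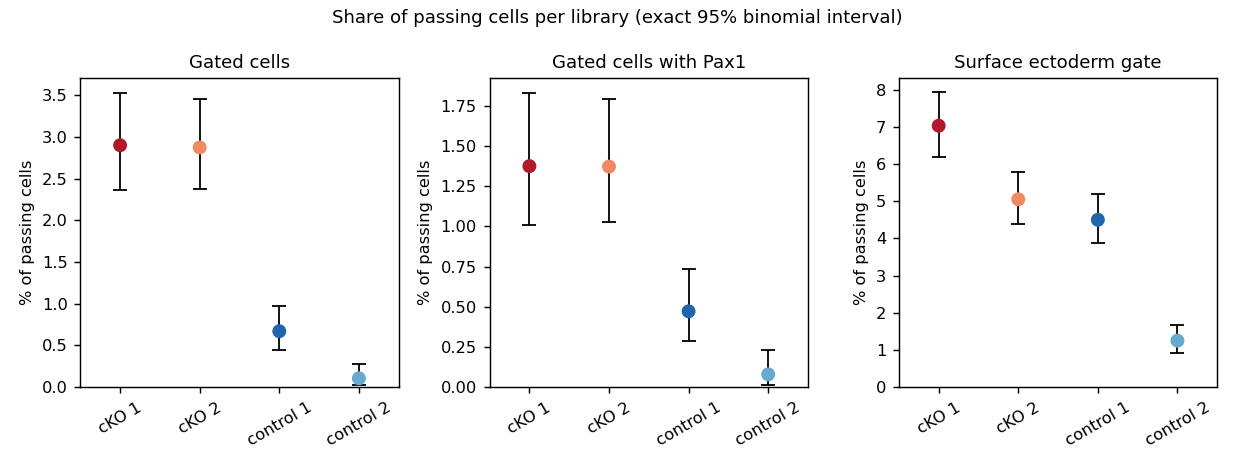
Share of passing cells (%, y axis) that were members, members with a Pax1 UMI, or surface ectoderm, in each of the 4 libraries (x axis); points are libraries and bars are exact 95% binomial intervals, which cover counting error only. Members lay at 2.90% and 2.87% in the cKO libraries, against 0.671% and 0.106% in the control libraries, whereas ectoderm in cKO 2 (5.05%) and control 1 (4.50%) lay close together.

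The gate joined cells of unlike content. Nkx2-6 was found in 196 of the 239 members, Pax1 in 121, Foxe1 in 46, and Pax1 with Nkx2-6 in 83. Members that held Nkx2-6 as the only one of the 3 genes numbered 108. Pax1 was found in 46 of 97 and 53 of 111 members in cKO 1 and cKO 2 (47.4% and 47.7%), against 19 of 27 and 3 of 4 members in control 1 and control 2 (70.4% and 75.0%). The cKO libraries thus held relatively more members without Pax1, and the exact binomial intervals of control 1 (49.8% to 86.2%) and cKO 2 (38.2% to 57.4%) overlapped. Neither Pax1 nor Nkx2-6 had a UMI in 199 leukocyte cells of the same libraries (median between 37492 and 51386.5 UMIs per library, against 27499.5 to 32606 in members), which allows a share of up to 1.51% of cells with a UMI.

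Members with Pax1 more often carried Pax9, Vgll2, Foxa1 and Gcm2, whereas Nkx2-3 was more often found without Pax1. The split by Pax1 was made after the values had been seen, so it is described without a test. Pax9 had a UMI in 83 of 121 members with Pax1 (68.6%), in 21 of 118 members without it (17.8%) and in 8 of 658 ectoderm cells (1.22%). Vgll2 was found in 67.8% of members with Pax1, 18.6% of those without and 4.41% of ectoderm cells. Foxa1, a forkhead pioneer factor of endoderm, was found in 20.7% and 3.39% of members with and without Pax1 and in none of the 658 ectoderm cells, which allows a UMI in up to 0.456% of such cells and sets no limit on cells that express the gene. Gcm2, the parathyroid determinant of the third pouch, was found in 19.0% and 0.847% of the same members and in no ectoderm cell. Nkx2-3 went the other way, in 9.09% of members with Pax1, 25.4% of those without and 1.98% of ectoderm cells. Sox17 was found in 3 of 121 members with Pax1 (2.48%) and 7 of 118 without it (5.93%), and Shh in 1 (0.826%) and 3 (2.54%). Foxa2 was found in 6 (4.96%) and 2 (1.69%) of the same members. These cells are too few to give a direction. After thinning to 10000 UMIs, Pax9 was found in 49.6%, 12% and 0.472% of members with Pax1, members without it and ectoderm cells. Levels were also pooled over cKO 1, cKO 2 and control 1, without control 2. Rspo3, a secreted enhancer of Wnt signalling, then had 31.2 CPM in members with Pax1 and 2.32 CPM in those without. Fgf3 had 57.8 and 7.52 CPM, and the caveola component Cavin2 had 91.0 and 13.3 CPM.

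Members without Pax1 resembled ectoderm in part and also carried neurogenic genes. Tfap2a was found in 9.09% of members with Pax1, 55.9% of those without and 87.1% of ectoderm cells. Foxi2, a forkhead factor of cranial ectoderm, was found in 9.92%, 69.5% and 76.4% of the same cells, and Wnt6 in 38.8%, 70.3% and 95.4%. Neurog2, the proneural factor of epibranchial placodes, was found in 9.09% of members with Pax1, 52.5% of those without and 3.04% of ectoderm cells. Phox2a, a homeobox factor of visceral neurons, was found in 8.26%, 45.8% and 5.32% of these cells. Pax8 was found in 24.8% of members with Pax1 and 48.3% of those without, and Fgf8 in 52.1% and 70.3%. Of the neuron markers, Elavl3 had 0 to 1.16 CPM per library and Tubb3 0 to 10.4 CPM, whereas the neurofilament genes Nefm and Nefl reached 244 and 160 CPM in control 1. The 12 neuron markers left after the gate summed to 286 and 295 CPM in cKO members, against 510 and 594 CPM in control members, and Isl1 and Neurog2 made up much of these sums.

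The name of a pouch epithelium fitted only some of the members. Of 15 endoderm markers, Foxa3, Gata4 and Nkx2-1 had no UMI in any member. Foxa2 was found in 3.35% of members, Sox17 in 4.18% and Shh in 1.67%, against at most 0.152% of ectoderm cells. A UMI of Pax9, Foxa1, Foxa2, Shh or Nkx2-3, with fewer than 2 UMIs of Trp63 and Tfap2a together, was found in 96 members. The reverse was found in 40 members, both in 42 and neither in 61. For these reasons the cells are called gated cells and not endoderm. Cells just inside the gate, with 2 UMIs of the 3 genes (46 cells), had 6.77 CPM of Pax9, and cells just outside it, with 1 UMI (98 cells), had 5.48 CPM. Vgll2 was at 6.77 CPM just inside and 4.21 CPM just outside, against 77.0 CPM of Pax9 and 128 CPM of Vgll2 in the 154 members with 4 or more UMIs.

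**Figure D2:**
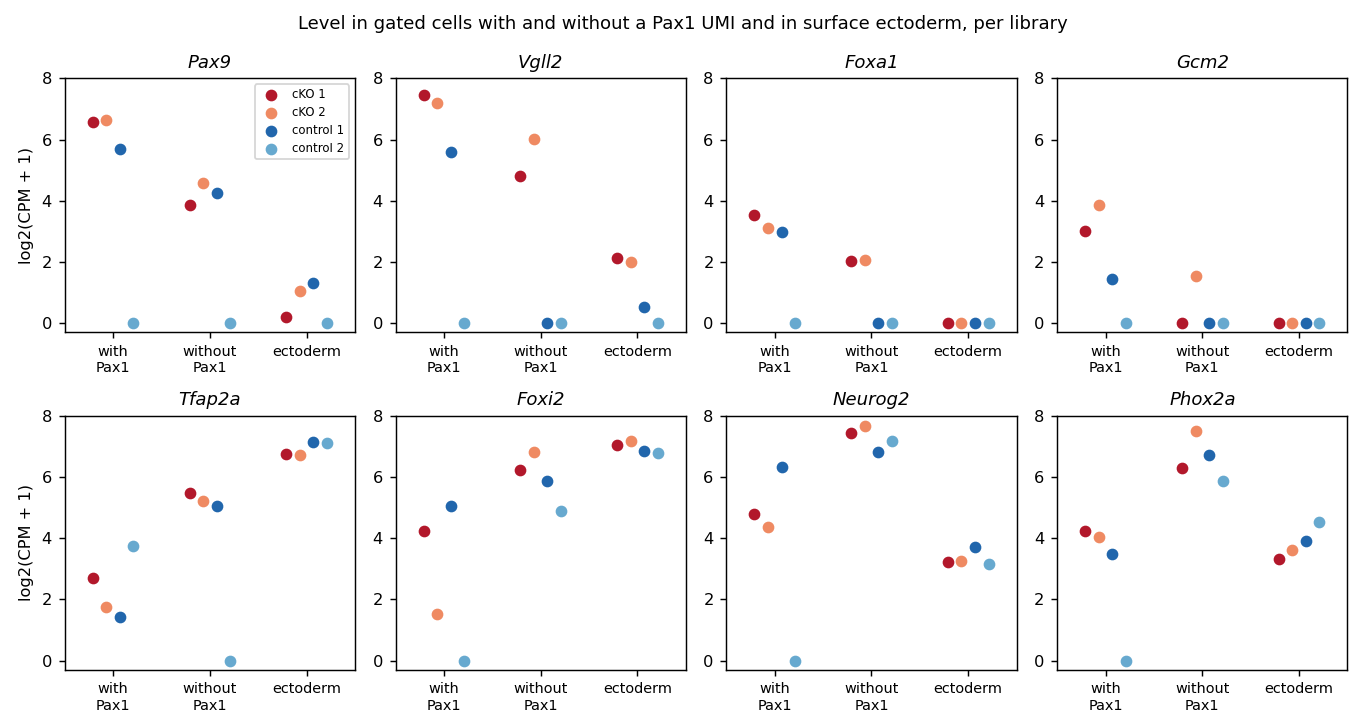
Level (y axis, log2(CPM + 1)) of 8 genes in gated cells with a Pax1 UMI, gated cells without one and surface ectoderm (x axis); each point is 1 library, coloured as in the key, and control 2 holds 3, 1 and 47 cells in the 3 groups. In cKO 1, cKO 2 and control 1, Pax9 lay highest in cells with Pax1 (94.3, 99.6 and 51.2 CPM), and Neurog2 lay highest in cells without it (174, 202 and 111 CPM).

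Against surface ectoderm of the same libraries, the gated cells were higher in many pouch patterning and FGF genes and lower in surface ectoderm genes such as Tfap2a, Wnt6 and Sfn. Counts were summed per library and compared with edgeR's quasi-likelihood test with the library as a block, over 4 libraries. Of 10929 genes tested, 1244 were higher and 1265 lower at an adjusted p under 0.05, 11.4% and 11.6% of the genes tested (23.0% together). Leaving out cKO 1 or cKO 2 lowered the total of 2509 to 1244 or 1361. Genes that go along with the gate genes in a cell were bound to differ, and a gene low in one kind of cell could pass the filter on low counts through the other. The counts therefore describe the cells the gate selected and support nothing further.

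Of the 24 pouch patterning genes listed, 18 were tested, 15 were higher and 1, Gata3, was lower. Vgll2 averaged 61.9 ± 54.5 CPM in gated cells and 1.71 ± 1.74 CPM in ectoderm (SD, n = 4 libraries each), a log2 difference of 5.03 (SE 0.19, adjusted p = 2.4e-13, edgeR). Its large spread in gated cells came with 105 and 111 CPM in cKO, against 32.4 and 0 CPM in control. Plet1, a surface protein of early endoderm and thymic epithelial progenitors, averaged 80.0 ± 17.3 CPM in gated cells and 6.03 ± 3.16 CPM in ectoderm, a log2 difference of 3.41. Its libraries did not overlap between the cell groups, which was a condition for the genes named by size, Plet1 among them.

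Other factors on the list followed. Sox2, an SRY-box factor of foregut and sensory progenitors, averaged 97.2 ± 37.4 CPM in gated cells and 13.5 ± 5.77 CPM in ectoderm (log2 2.88). Pax8 had a log2 difference of 2.68, Ripply3, a corepressor of Tbx1, of 2.18 and Isl1, a LIM-homeobox factor, of 1.85. Smaller increases were seen for Hoxa3 (log2 1.00) and Eya1 (0.99). Tbx1 differed by only 0.57 (adjusted p = 0.034, edgeR), and its call was lost without either cKO library, where its adjusted p was 0.17 and 0.50. Hoxa3 was lost in the same way, with adjusted p-values of 0.11 and 0.052. Pax9 did not pass the filter on low counts, and had 56.3, 67.1, 40.5 and 0 CPM in gated cells of cKO 1, cKO 2, control 1 and control 2, against at most 1.5 CPM in ectoderm. Of the 15 endoderm genes only Prdm1 and Cldn6 could be tested, and Prdm1, a transcriptional repressor, was higher (log2 1.83).

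FGF pathway genes were higher in gated cells at the level of ligands, targets and feedback genes. Of 21 listed, 17 were tested, 12 were higher and 1 was lower. Among ligands, Fgf15 had a log2 difference of 4.51, Fgf3 of 3.69, Fgf17 of 3.18, Fgf8 of 2.41 and Fgf9 of 1.64. Fgf3 averaged 26.1 ± 14.6 CPM in gated cells and 1.73 ± 1.55 CPM in ectoderm (SD, n = 4 libraries each). Among ETS factors that FGF signalling induces, Etv5 averaged 33.4 ± 7.48 CPM in gated cells and 9.06 ± 4.45 CPM in ectoderm (log2 2.18), and Etv4 had a log2 difference of 2.23. The MAP kinase phosphatase Dusp6 had one of 1.58 and the inhibitor Spry1 one of 1.08. The receptor Fgfr2 went the other way, at 20.2 ± 11.2 CPM in gated cells and 97.7 ± 36.1 CPM in ectoderm (log2 -2.05).

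Of the 20 genes on the surface ectoderm list, 16 passed the filter and were lower in gated cells. Only 10 of the 20 passed it on the sums of gated cells alone, so the lower level of the other 6 tested (Tfap2b, Krt14, Krt15, Dlx3, Grhl3 and Wnt3) was fixed by the filter. Tfap2a, which passed it in gated cells as well, averaged 15.2 ± 6.59 CPM in gated cells and 123 ± 20.4 CPM in ectoderm (log2 -2.49). Tfap2b had 1.79 ± 1.36 CPM in gated cells, against 241 ± 79.8 CPM in ectoderm (log2 -6.10). Perp, a desmosomal p63 target, had 16.0 ± 11.5 CPM in gated cells and 190 ± 33.7 CPM in ectoderm (log2 -3.09), and the basal keratins Krt15 and Krt14 had log2 differences of -3.06 and -2.99. Dlx5 was the weakest call in this list (log2 -0.96, adjusted p = 0.027, edgeR), and it was lost without cKO 2, control 1 or control 2, at adjusted p-values of 0.071, 0.094 and 0.057.

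Other pathways split by their members. In the Wnt list, 6 of 16 tested genes were higher and 4 lower. The higher ones included Rspo3 (log2 3.91) and the Wnt antagonist Sfrp2 (log2 3.17, 90.1 ± 49.1 CPM in gated cells and 10.2 ± 4.94 CPM in ectoderm), and the lower ones were the ligands Wnt3, Wnt4, Wnt6 and Wnt7b. In the Notch list, 8 of 15 tested genes were higher and 2 lower, with the effector Hey1 at 66.1 ± 20.4 CPM in gated cells and 14.0 ± 4.55 CPM in ectoderm (log2 2.30) and the ligand Jag2 at a log2 difference of -3.54. In the hedgehog list, the receptor and target Ptch1 was higher (log2 1.33), while Gas1, Cdon, Boc and the antagonist Hhip were lower. In the BMP list 3 of 14 tested genes were higher and 4 lower, and in the retinoic acid list 3 of 11 and 2. Cell cycle genes were higher in gated cells, with 11 of 18 S phase genes and 15 of 18 G2/M genes higher and none lower, at median log2 differences of 0.42 and 0.46. The gated cells also held more UMIs, with medians of 27499.5 to 32606 per library, against 20487 to 24652 in ectoderm.

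By size of the change, the leading genes that were higher in gated cells, after removing gate genes, included Cavin2 (log2 5.39), the retinol carrier Rbp4 (5.33), Ctxn3 (4.50), the metallothionein Mt3 (4.19), the carboxypeptidase Cpm (4.09) and the Wnt receptor Fzd4 (3.78). Rbp4 averaged 119 ± 24.7 CPM in gated cells and 3.55 ± 1.93 CPM in ectoderm. Neurog2 (log2 3.33) and Lix1 (3.31) were also among them, and Lix1 lost its call when members without Pax1 were left out (log2 0.41, adjusted p = 0.58, edgeR). Leading genes that were lower included the matrix linker Hapln1 (log2 -5.12, 3.64 ± 4.16 CPM in gated cells and 272 ± 93.9 CPM in ectoderm), the tight junction gene Cldn11 (-4.56), the chemokine Cxcl14 (-3.49) and the Iroquois factor Irx4 (-3.38).

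**Figure D3:**
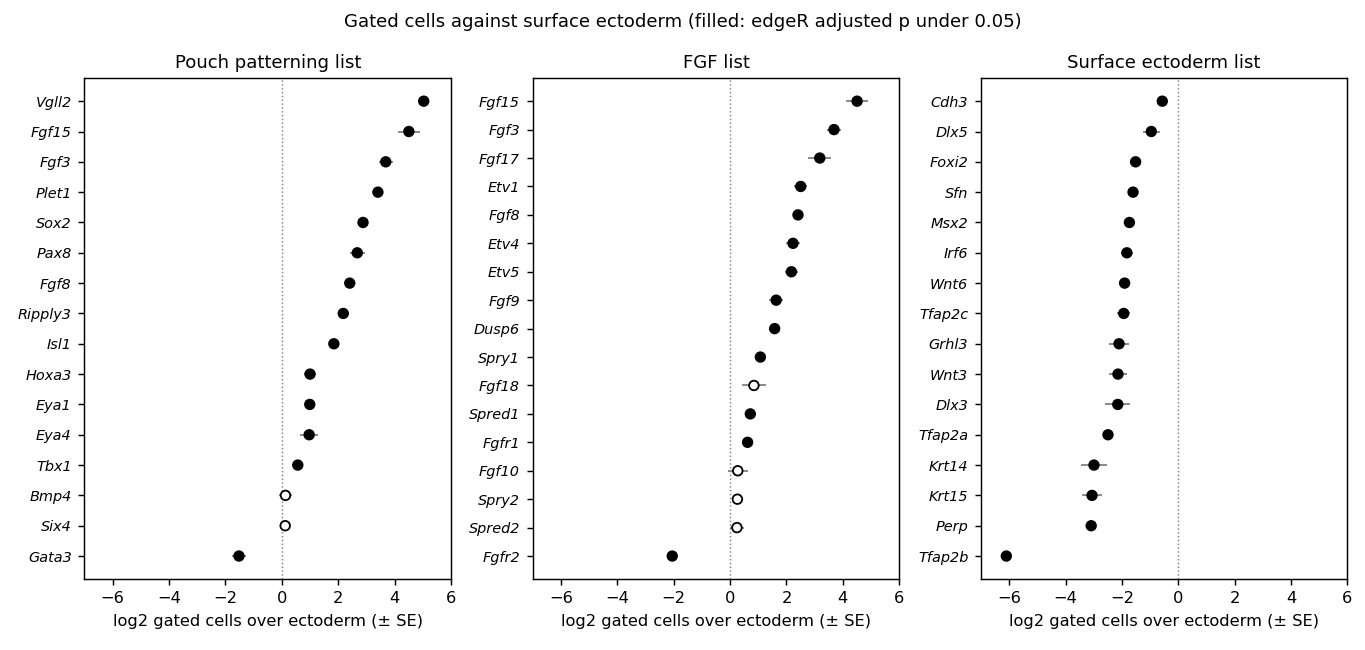
Log2 difference of gated cells over surface ectoderm (x axis) with its standard error for tested genes of 3 lists (y axis); filled points had an adjusted p under 0.05 in edgeR over 4 libraries. The 16 surface ectoderm genes drawn lay below 0, 12 of 17 FGF genes were filled and above 0, and of the pouch patterning genes drawn Gata3 alone was filled and below 0.

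Between genotypes, gated cells of cKO libraries had less Bmp4 and Isl1 and more Fgf8, Vgll2 and Wnt6. With edgeR's quasi-likelihood test on the 4 library sums, 95 of 9818 genes tested were higher and 100 were lower in cKO (0.968% and 1.02% of the genes tested, 1.99% together). The total of 195 rests on few control cells. It was 113 without cKO 1, 94 without cKO 2 and 89 without control 1, which leaves the 4 cells of control 2, and DESeq2 called 56 genes. With a library left out, the 1 library that remains of its genotype is assumed to vary like those of the other genotype. Among members with Pax1 only, 77 genes passed, 68 of them among the 195. In summed counts, fewer cells of a type and less RNA per cell cannot be told apart, and the share of members with Pax1 differed between genotypes as given above, so values for members with Pax1 are set beside each main gene.

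Bmp4, a secreted signal of pouch and cleft epithelium at chr14:46383520-46390669 (GENCODE vM21, mm10), had 52.8 and 53.5 CPM in cKO, against 307 and 181 CPM in control. The groups did not overlap, and the log2 change was -2.31 (SE 0.18, adjusted p = 3.0e-06, edgeR). It was found in 40 of 97 and 48 of 111 members in cKO, against 17 of 27 and 4 of 4 in control, and 1 cell held 40.6% of its UMIs in control 1. Among members with Pax1 it had 45.7 and 31.6 CPM in cKO, against 196 and 246 CPM in control (log2 -2.34). Without control 1 its log2 change was -1.58 (adjusted p = 0.056, edgeR). The long noncoding RNA Rubie, at chr14:46568263-46598425 on the same chromosome, had 10.8 and 6.52 CPM in cKO, against 95.9 and 51.6 CPM in control (log2 -3.22), and it also lost its call without control 1 (log2 -2.36, adjusted p = 0.32, edgeR).

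Isl1 had 159 and 154 CPM in cKO, against 376 and 534 CPM in control, a log2 change of -1.35 (SE 0.15, adjusted p = 0.00011, edgeR). It was found in 80 of 97 and 97 of 111 cKO members, against all 27 and all 4 control members. The call held with each library left out in turn and among members with Pax1, where the levels were 171 and 157 CPM in cKO, against 442 and 714 CPM in control. Among the 15 tested BMP genes, Bmp4, Bmp2 (log2 -2.54) and the BMP target Id2 (log2 -0.83) fell and none rose. Id2 had 218 and 255 CPM in cKO, against 421 and 499 CPM in control. Its call was lost without cKO 1 (adjusted p = 0.12, edgeR) and without control 1 (0.086), and that of Bmp2 without cKO 2 (0.065) and without control 1 (0.66). Id1, Id3 and Msx1 did not pass, with Id1 at 277 and 500 CPM in cKO, against 733 and 620 CPM in control.

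Fgf8 had 192 and 198 CPM in cKO, against 33.5 and 0 CPM in control, a log2 change of 2.79 (SE 0.28, adjusted p = 5.1e-05, edgeR). It was found in 62 of 97 and 76 of 111 cKO members, against 8 of 27 and 0 of 4 control members. Much of this lay in members without Pax1, which had 295 and 309 CPM in cKO, against 14.3 and 0 CPM in control. Members with Pax1 had 99.8 and 117 CPM in cKO, against 42.7 and 0 CPM in control, with a log2 change of 1.59 (adjusted p = 0.046, edgeR). DESeq2 did not call Fgf8 (adjusted p = 0.40), and neither did edgeR among members without a Trp63 UMI (log2 2.09, adjusted p = 0.082). Without control 1 no fold can be given for Fgf8 or Vgll2, since control 2 had no UMI of either. The FGF target Dusp6 rose as well (log2 1.35, 107 and 85.3 CPM in cKO, against 37.0 and 51.6 CPM in control). Its call was lost without cKO 1 (adjusted p = 0.10, edgeR), without control 1 (0.55) and among members with Pax1 (0.41). No other of the 18 tested FGF genes passed.

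Vgll2 had 105 and 111 CPM in cKO, against 32.4 and 0 CPM in control (log2 1.98, adjusted p = 0.0015, edgeR), and among members with Pax1 it had 174 and 145 CPM in cKO, against 47.8 and 0 CPM in control (log2 1.99). DESeq2 did not call it (adjusted p = 0.75). Wnt6 had 108 and 129.3 CPM in cKO, against 38.1 and 8.61 CPM in control (log2 1.84, adjusted p = 0.0011, edgeR). Among members with Pax1 its log2 change was also 1.84 but did not pass (adjusted p = 0.082, edgeR), nor did it among members without a Trp63 UMI (0.21). Without control 1 its log2 change was 3.89, set against 1 UMI in control 2. Wnt6 was the only one of 10 tested surface ectoderm genes that changed. Of the 20 pouch patterning genes tested, 2 rose (Fgf8 and Vgll2), 3 fell (Bmp4 and Isl1 among them) and 15 did not pass. Among those that did not pass, Plet1 had 82.3 and 70.9 CPM in cKO, against 63.6 and 103 CPM in control, Eya1 had 89.3 and 102 CPM, against 84.4 and 94.7 CPM, and Sox2 had 139 and 85.3 CPM, against 113 and 51.6 CPM.

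**Figure D4:**
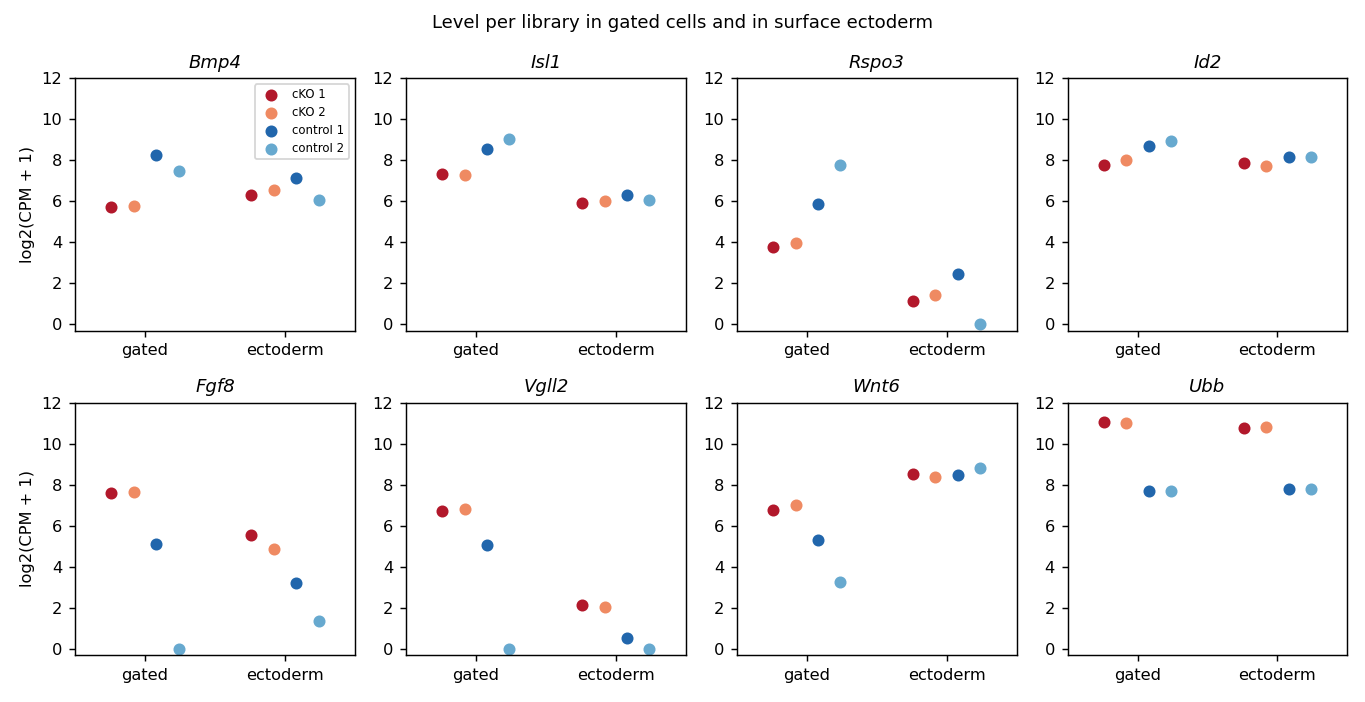
Level (y axis, log2(CPM + 1)) of 8 genes in gated cells and surface ectoderm (x axis); each point is 1 library, with cKO libraries left of control libraries. In gated cells Bmp4 lay at 52.8 and 53.5 CPM in cKO, against 307 and 181 CPM in control, and Ubb was separated by genotype in both kinds of cell.

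The genes with the largest changes, named by a rule on size, included further secreted and adhesion molecules. Among the 12 that fell most were the semaphorin Sema3c (log2 -3.77), the protocadherin Pcdh17 (-3.71), the netrin receptor Unc5c (-3.13), C1qtnf12 (-3.05), Tgfb2 (-2.68), Rspo3 (-2.51) and the collagen Col9a1 (-2.35). Over all passing cells, which mix many kinds of cell, each of these genes was also lower in cKO. Tgfb2 had 6.73 and 8.25 CPM there in cKO, against 41.5 and 34.9 CPM in control. C1qtnf12 had 10.8 and 11.9 CPM, against 38.2 and 48.0 CPM. Sema3c was lower only narrowly, at 9.66 and 8.09 CPM, against 12.3 and 9.81 CPM. Col9a1 had 26.8 and 24.7 CPM in cKO, against 109 and 275 CPM in control, and kept its call with each library left out in turn. Rspo3 had 12.8 and 14.9 CPM in cKO, against 57.8 and 215 CPM in control, and kept its call as well, at log2 changes from -3.74 to -1.96. In control 2, however, 1 cell held 71.9% of the Col9a1 UMIs. Likewise 1 cell there held 68.0% of the Rspo3 UMIs, which were found in 2 of 4 members. For both genes the fit without control 1 therefore rests largely on 1 control cell. The neurofilament genes Nefm and Nefl were also among the 12. A single cell held 55.9% and 54.3% of the UMIs of Nefm and Nefl in control 1, and likewise 65.6% of those of Tgfb2, 58.8% of Unc5c and 48.4% of Sema3c. These 5 genes lost their call without control 1, and Tgfb2 did not pass among members with Pax1 (adjusted p = 0.27, edgeR). Without control 1 Nefm had an adjusted p of 0.84 and Nefl of 0.75, and Nefl had 0.080 without control 2 (edgeR). Pooled over cKO 1, cKO 2 and control 1, Nefm was at 7.97 CPM in members with Pax1 and 111 CPM in those without. Members without Pax1 had 29.1, 90.3 and 706 CPM in these 3 libraries.

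Among the 12 that rose most, the claudin Cldn10 and the homeobox gene Nkx2-3, a factor of pharyngeal floor and gut, had no UMI in any control member. Against the level that 3 UMIs over both control libraries would give (3.06 CPM), Cldn10 was at least 7.91-fold higher and Nkx2-3 at least 6.53-fold higher in cKO. Cldn10 was found in 23 and 18 cKO members and Nkx2-3 in 24 and 17, and the call of Nkx2-3 was lost without cKO 1, control 1 or control 2 (adjusted p = 0.32, 0.65 and 0.065, edgeR) and that of Cldn10 without cKO 1 or control 1 (0.061 and 0.61). The Wnt-responsive factor Sp5 had 155 UMIs in cKO, against 1 in control, a ratio per UMI of 21.4 (95% counting interval 3.78 to 850.4). The neurotrophin receptor Ngfr had 221 UMIs in cKO, against 2 in control, a ratio of 15.3 (4.17 to 126.7). Both intervals cover counting error only, not the spread of cells or libraries, and the control UMIs of each gene came from 1 cell. Among members with Pax1, Sp5 did not pass (adjusted p = 0.062, edgeR) and Ngfr could not be tested. Pooled over cKO 1, cKO 2 and control 1, Ngfr had 9.52 CPM in members with Pax1 and 52.1 CPM in those without. Phlda1 (log2 3.14), Eva1b (2.30), Selenop (2.52) and the glucose transporter Slc2a3 (2.08) were also among the 12, and each of these 4 lost its call without control 1.

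Large changes of Ubb, Mt1 and Mt2 were not particular to gated cells and were seen in ectoderm and over all passing cells as well. Ubb, a polyubiquitin gene, had 2108 and 2094 CPM in gated cells of cKO, against 206.9 and 206.6 CPM in control, and 1774 and 1780 CPM in ectoderm of cKO, against 218 and 219 CPM in control. The metallothioneins Mt1 and Mt2 rose in gated cells (log2 2.75 and 2.92) and were likewise higher in ectoderm of cKO, with Mt1 at 698 and 596 CPM, against 235 and 244 CPM in control. By edgeR's interaction test the rise was larger in gated cells than in ectoderm for Mt2 (log2 1.86, adjusted p = 0.0020) and Mt1 (1.28, 0.0072). DESeq2 called neither (adjusted p = 0.67 and 0.38), and members of control 1 and control 2 held 8 and 0 UMIs of Mt2 and 14 and 5 of Mt1. For Ubb the rise was not shown to differ (log2 0.35, adjusted p = 0.55, edgeR). The part of Ubb, Mt1 and Mt2 in the other results was not tested.

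Most of the 24 genes named by size kept their call without control 2 and lost it without control 1. The fit without control 1 leaves only the 4 members of control 2 as control. They had no UMI of Fgf8, so a call of Fgf8 in that fit says little. Of the 20 that could be tested among members with Pax1, all had the same sign and 11 passed. These members are part of the cells in which the genes were chosen, so the shared sign was largely fixed in advance. Of the cell cycle genes, 2 of 18 S phase genes were higher (Mcm4 and Ccne1) and 2 of 18 G2/M genes lower (Mki67 and Cenpe), beside 0.968% of all genes tested higher and 1.02% lower. The proliferation marker Mki67 had 103 and 92.6 CPM in cKO, against 222 and 215 CPM in control (log2 -1.10), and in ectoderm 116 and 98.2 CPM in cKO, against 178 and 184 CPM in control. None of these 4 genes passed among members with Pax1, at adjusted p-values of 0.13 to 0.24 (edgeR). Leukocyte marker genes were low in members, with 10 genes summing to 3.21 and 2.45 CPM in cKO, against 4.62 and 0 CPM in control, and Ptprc at 0 in all 4 libraries. The 10 mesenchyme genes were not clearly low, summing to 35.0 and 79.9 CPM in cKO members, against 69.4 and 60.3 CPM in control members. Over all passing cells they summed to 126 and 47.3 CPM in cKO, against 67.9 and 90.8 CPM in control. The 10 otic genes left after the gate summed to 65.6 and 60.3 CPM in cKO members, against 76.3 and 172 CPM in control members. Over all passing cells these otic genes summed to 273 and 331 CPM in cKO, against 756 and 806 CPM in control. In the otic list, Sox9, a gene also used outside the ear, was the one that fell (log2 -1.66). Fbxo2 was the one that rose, at 22.5 and 16.0 CPM in cKO, against 0 and 8.61 CPM (1 UMI) in control. Neither passed among members with Pax1 (adjusted p = 0.060 and 0.14, edgeR). The part of cells of these other kinds in the results was not tested.

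**Figure D5:**
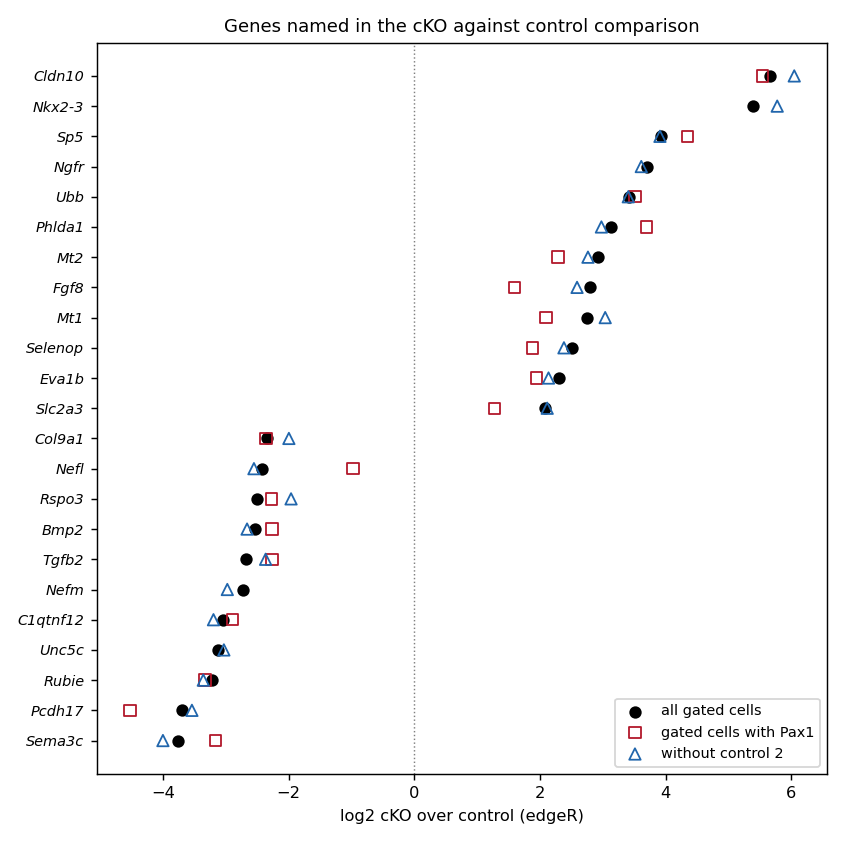
Log2 change of cKO over control (x axis, edgeR) of genes named by size (y axis), over all gated cells (circles), over gated cells with a Pax1 UMI (squares, missing where a gene was not tested) and without control 2 (triangles). All squares and triangles lie on the same side of 0 as their circle, which was largely fixed in advance because they use part of the same cells. Fgf8 lies at 1.59 over cells with Pax1 and at 2.79 over all gated cells.

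Whether the genotype difference in gated cells differed from that in surface ectoderm was tested with an interaction term, with the library as a block. Of 11785 genes tested, 66 had a more positive and 105 a more negative difference in gated cells (0.560% and 0.891% of the genes tested, 1.45% together). In that fit edgeR found no gene-to-gene variation in dispersion, so its p-values lean on 1 shared estimate, and DESeq2 called 17 genes, all among the 171. The total was 35 without cKO 1, 39 without cKO 2, 146 without control 1 and 269 without control 2. Without control 1, 48 of the 171 genes were called and 23 had the opposite sign. Bmp4 differed by -1.85 on the log2 scale (adjusted p = 3.5e-22 with edgeR and 8.9e-07 with DESeq2), and in ectoderm it had 78.1 and 92.6 CPM in cKO, against 138 and 66.4 CPM in control. Isl1 differed by -1.08 (adjusted p = 2.3e-08 with edgeR and 0.032 with DESeq2), with 60.7 and 64.1 CPM in ectoderm of cKO, against 78.3 and 66.4 CPM in control. Rubie differed by -3.56 and Col9a1 by -2.24, both also called by DESeq2. Wnt6 differed by 1.87 with edgeR (adjusted p = 6.3e-11) but not with DESeq2 (adjusted p = 0.087), at 374 and 337 CPM in ectoderm of cKO, against 361 and 444 CPM in control. Fgf8 was not shown to differ between the cell groups (log2 0.43, adjusted p = 0.88, edgeR), and in ectoderm it had 45.6 and 28.5 CPM in cKO, against 8.15 and 1.56 CPM in control.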

How the data were processed

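Single-cell RNA was captured with the Chromium Next GEM Single Cell 3′ kit v3.1, per the labels' protocols. The authors deposited raw UMI counts of 32285 genes per cell barcode, written by Cell Ranger 6.0.1 per the file headers, whereas version 3.1.0 of that tool, FastQC 0.11.4, Seurat 4.1.0 and build mm10 appear in the submitters' processing notes. CPM and sums of gated cells' counts were computed per library from the deposited counts with Python 3.11.15. Sums were compared with edgeR 4.0.16 (filterByExpr, TMM, quasi-likelihood, prior count 1), with Benjamini-Hochberg adjustment at 0.05 over all genes tested, and with DESeq2 1.42.0 as an alternative. All tests were two-sided. On simulated counts edgeR recovered 90.5% of 200 changed genes in the genotype comparison (9879 genes), 100% against ectoderm (11016) and 49.5% in the interaction (11694). In the same order, 7.65%, 1.48% and 4.81% of its calls were false. The simulation gave all genes the same spread and placed changes of the same size on well-expressed genes only. It held no cells, so no single cell could carry much of a gene's count. These rates therefore do not measure performance on the real counts.

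The members, the 26 gene lists and the tests were chosen with earlier results of these data known. Genes named by size were the 12 largest changes in each direction with an adjusted p under 0.05, at least 20 CPM in the higher group and no overlap between libraries, without gate, mitochondrial, haemoglobin, Xist, Y-linked or unnamed genes. Any list member could also be named. Doublets were kept, since Scrublet (scanpy 1.11.5) called 0 to 5 cells per library. The alternative removed the highest-scoring 124 to 160 cells per library, of which 2 to 6 were members. The 4 cells that met both gates were counted as members. Gene positions were found in GENCODE vM21 for 32158 gene identifiers. A few listed genes are counted in the totals but are not reported here by name.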

Additional observations from a re-analysis of the deposited data

Results flagged for a closer look

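Among genes named in the genotype comparison, named by size in the interaction, or on the pouch patterning and surface ectoderm lists, 34 reported here had a cKO over control change in gated cells that differed from that in surface ectoderm by the interaction test in edgeR. DESeq2 also called 10 of them and gave no adjusted p for 5. Values are the log2 change in gated cells minus that in ectoderm. Among genes that DESeq2 also called, the difference was positive for Phlda1 (3.14) and negative for Tagln (-4.00), Rubie (-3.56), Cyp26a1 (-2.83), C1qtnf12 (-2.69), Lum (-2.54), Pcdh17 (-2.52), Col9a1 (-2.24), Bmp4 (-1.85) and Isl1 (-1.08). Among the others it was positive for Cldn10 (7.43), Kitl (5.81), Cobll1 (5.24), Sp5 (3.98), Fbxo2 (3.46), Fam89a (2.98), Ppp1r14a (2.43), Eva1b (2.40), Msx2 (1.94), Mms22l (1.93), Alcam (1.89), Wnt6 (1.87), Mt2 (1.86), Slc2a3 (1.71) and Mt1 (1.28). Also among the others, it was negative for Unc5c (-3.15), Mt3 (-3.09), Sema3c (-3.07), Bmp2 (-2.43), Igf1 (-2.37), Nefm (-1.82), Tgfb2 (-1.77), Nefl (-1.28) and Sox9 (-1.03). Cldn10, Kitl and Cobll1 had no UMI in any control gated cell, so their fitted differences depend on the prior count and are no measured fold. Sp5 and Fbxo2 had 1 UMI and Fam89a had 2 UMIs in control gated cells. The difference was tested on 4 libraries, of which control 2 holds 4 gated cells.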

How the results depend on the processing

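The precision of every comparison is limited by the 31 control members, 4 of them in control 2, and no call here has an independent set of embryos. For genes changed between genotypes, 195 in the main test, the count was 56 with DESeq2, 545 with no filter on low counts, 345 with doublets removed, 86 with members free of Trp63 UMIs, 77 with members holding Pax1 (an alternative chosen after seeing the data) and 121 with the replicate number as a block. It ranged from 89 to 254 with 1 library left out, and without control 1 the median log2 of all genes tested was 0.27. For gated cells against ectoderm, 2509 genes in the main test, the count was 1402 with DESeq2 and 1589 with no block for the library, and 1244 to 2819 with 1 library left out. For the interaction, 171 genes in the main test, the count was 17 with DESeq2, 111 with at least 3 UMIs in the gate and 91 with cell group by replicate number added as a replicate block, and 35 to 269 with 1 library left out. The share of members was higher in cKO by 2.22 to 2.78 percentage points with 1 library left out and by 1.10 to 22.3 points under the other gates and denominators. The replicate numbers pair nothing in the genotype comparison: deviations of same-numbered libraries from their group means correlated at -0.02 over 9837 genes of gated cells, so the block there shares only a number. None of the named and listed genes recomputed under each alternative changed sign, which was largely fixed in advance because the alternatives reuse the same cells. Over all calls, 4 of 195 genotype calls and 23 of 171 interaction calls had the opposite sign without control 1, as did 2, 4 and 11 calls of the genotype, interaction and ectoderm comparisons with members holding Pax1, and between 1 and 9 calls under single other settings. In the genotype comparison 323 values stayed on their side of the threshold and 77 fell below it, against ectoderm 1019 and 38, and in the interaction 287 and 87. The causes of these moves were not tested.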
